A study of Mus musculus with 12 samples.

Results

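The age effect in the hippocampus of mice without Trem2 was measured as the difference between 3 libraries from 9-month-old mice and 3 libraries from 3-month-old mice. These 6 libraries, chosen by their labelled genotype and age, were part of a series of 12, and each came from its own mouse. Every mouse was male and carried AppNL-G-F, a knock-in of the amyloid precursor protein gene with a humanised amyloid-β region and familial Alzheimer's disease mutations. The 6 mice described here also carried a Trem2 knockout (labelled Trem2 KO, called Trem2-KO below), in 2 groups of 3 at 3 and 9 months. The other 6, also in 2 groups of 3 at the same ages, kept Trem2 (App-KI) and were used to test whether the age effect differed. They also entered the fit that set the spread behind every call in Trem2-KO. All 4 groups carried the knock-in, so age and the amyloid load that builds up with it cannot be told apart. The labels do not say which part of Trem2 was deleted, nor whether littermates were used. RNA was taken from hippocampal tissue and not from sorted cells, so a lower value from fewer cells of a type and one from less RNA per cell cannot be told apart.

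TREM2 is a lipid-sensing receptor on the surface of microglia, the resident macrophages of the brain, and signals through the adaptor TYROBP (DAP12) and the kinase SYK. Around amyloid plaques, microglia lower the genes of their resting (homeostatic) state and raise a set of phagocytic, lysosomal and lipid genes. This disease-associated (DAM) program is usually divided into a first stage that does not need TREM2 and a later stage that does. Astrocytes near plaques also change, with more of the filament protein GFAP and of complement components.

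Library totals ran from 14627892 to 22930440 counts over the 6 Trem2-KO libraries, where a gene with a count of 0 may still have a level of up to 3 counts, equal to 0.131 to 0.205 CPM (library-scaled read counts). The markers of hippocampal neurons were present in every library, with the dentate granule cell gene Prox1 between 74.9 and 89.8 CPM. Markers of tissue next to the hippocampus varied between libraries. The choroid plexus gene Ttr ranged from 516 to 1003 CPM at 3 months and was at 2417, 1703 and 25.1 CPM in the 9-month libraries 1, 2 and 3. Library 3 at 9 months also stood apart on the first 2 principal components, which are the main axes of variation over all genes, at 7.17 and 22.6 against 22.1 and 29.9, and -24.2 and -24.5, for the other 9-month libraries. The mean log2 CPM of 32 meningeal fibroblast genes was 3.26 to 3.61 at 3 months and 4.02 to 4.52 at 9 months in Trem2-KO, so it moved with age, while all 6 App-KI libraries lay between 3.18 and 3.82. Counts of called members from a fit with this score as a covariate are given beside each gene list, and beyond that its part in the age effect was not tested. In Trem2-KO that fit cannot fully separate the score from age, and its median standard error was 0.231 against 0.123 without the score. A call lost there therefore does not show that a change was absent. Lymphocyte markers were near the limit of counting, with Cd3e at no more than 0.371 CPM.

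**Figure D1:**
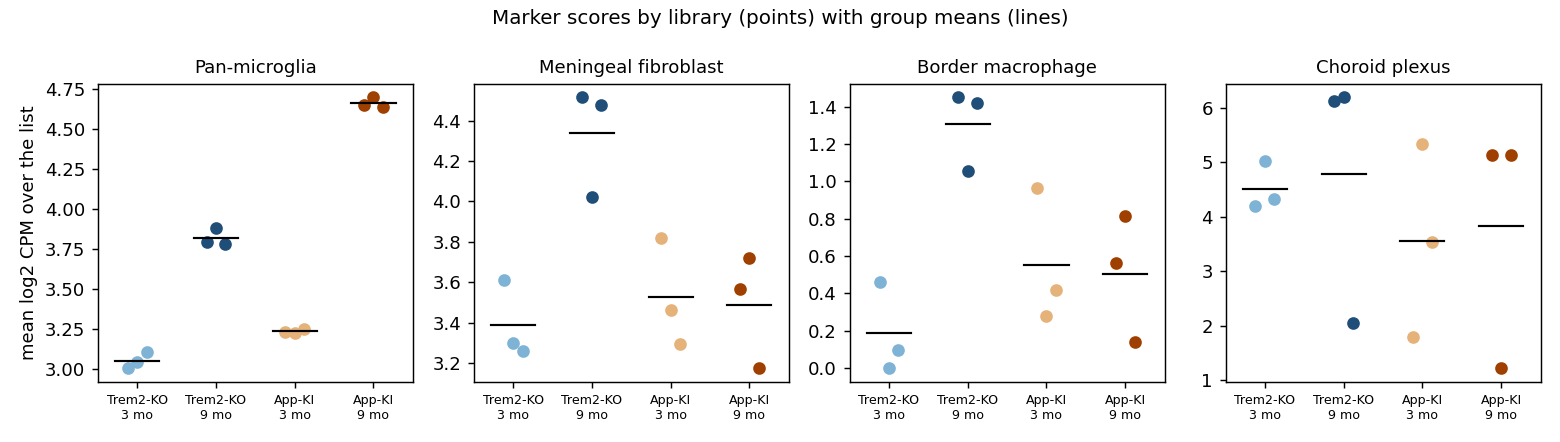
Mean log2 CPM of 4 marker lists in each library (points), with group means (lines), for Trem2-KO and App-KI at 3 and 9 months. The pan-microglial score separates the ages in both genotypes, the fibroblast and border macrophage scores separate them only in the Trem2-KO libraries, and the choroid plexus score of 1 Trem2-KO library at 9 months (2.05) lies far below the others of its group (6.12 and 6.2).

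Trem2 itself was measured first, as a check of the labels. Its level was 1.85, 1.93 and 2.17 CPM at 3 months and 3.62, 3.83 and 3.77 CPM at 9 months in Trem2-KO, against 10.4, 8.05 and 9.17 CPM and 55.6, 52.6 and 49.8 CPM in App-KI at the same ages. The knockout libraries were therefore lower at both ages, without overlap, but reads on the gene remained and rose with age by 0.90 ± 0.14 (SE; edgeR adjusted p = 0.000395) on the log2 scale. Gene-level counts do not show which transcript these reads came from. App, which carries the knock-in, was at 1258, 1178 and 1240.2 CPM at 3 months and 1219.8, 1197 and 1152 CPM at 9 months in Trem2-KO, and the ages overlapped.

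Of 19152 genes tested with edgeR's quasi-likelihood test and Benjamini-Hochberg adjustment, 1667 changed between 3 and 9 months in Trem2-KO at an adjusted p under 0.05 (8.7%). Among them 1088 rose (5.68%) and 579 fell (3.02%), and these 2 shares are the background for every count of a gene list below. The median change over all genes was 0.00227 on the log2 scale and the median size of a called change was 0.47, so most changes were small: 240 genes rose and 22 fell by more than 1 on the log2 scale. The 3 libraries at 9 months lay wholly above or below those at 3 months for 4860 genes (25.4%). Counts of calls depended on single libraries: 769 genes were called without library 3 at 3 months, 1042 without library 2 at 3 months and 932 without library 2 at 9 months, while 1920 were called without the library that stood apart, library 3 at 9 months. A fit of only the 6 Trem2-KO libraries called 1177 genes, 829 higher and 348 lower, and 67.4% of the 1667 were among them. In the fit with the fibroblast covariate, 70 genes were called, 67 of them among the 1667. Of 159 genes named in the text and called without the covariate, 26 were called with it: C1qa, C1qb, C1qc, C3ar1, C4b, Capg, Ccl6, Cd68, Clec7a, Csf1r, Ctsd, Ctss, Ctsz, Fcgr3, Fcrls, Gfap, Grn, Hexa, Laptm5, Lyz2, Osmr, Selplg, Siglech, Stat3, Tlr13 and Tlr2. A total of 2326 genes then had an unadjusted p under 0.05, against 4339 without the covariate, and the median standard error (SE) was 0.231 against 0.123.

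The 15 genes with the highest log2 change, by the rule given under processing, were led by myeloid and complement genes. Clec7a, a pattern-recognition receptor of activated microglia, was at 0.274, 0.0879 and 0.0964 CPM at 3 months and 2.69, 4.03 and 1.64 CPM at 9 months. At 3 months this was 8 counts over 3 libraries and at 9 months 176, a ratio of 20.5 (95% exact interval 10.2 to 48.2, counting error only), and the libraries did not overlap. The fitted log2 change, 4.28 ± 0.41 (SE; edgeR adjusted p = 3.50e-06), depends on a prior count at this depth. C4b, a complement component made by astrocytes and oligodendrocytes near plaques, was at 36.7, 34.8 and 46.7 CPM at 3 months and 309.9, 347 and 324 CPM at 9 months, a change of 3.05 ± 0.19 (SE; edgeR adjusted p = 4.60e-05) or 8.28-fold. Reads of C4b and its near-identical neighbour C4a may have been shared in counting. Lyz2, a myeloid lysozyme that shares sequence with Lyz1, was at 11.9, 9.06 and 10.2 CPM at 3 months and 47.4, 49.1 and 44.7 CPM at 9 months and rose by 2.2 ± 0.10 (SE; edgeR adjusted p = 5.32e-11). Each of these 3 genes was also called with the fibroblast score as a covariate, at log2 changes of 4.79, 2.82 and 2.06.

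The other 12 were of mixed kinds. Cst7, a cystatin of the DAM program, rose by 2.79 ± 0.41 (SE; edgeR adjusted p = 0.00110) and Itgax, the integrin CD11c, by 2.73 ± 0.61 (SE; edgeR adjusted p = 0.00740). Itgax rested on 6 counts at 3 months against 45 at 9 months (ratio 6.98, 95% exact interval 2.97 to 20.0), and the call was lost in 1 of the 12 fits that each left out 1 library, with a highest adjusted p of 0.0583 without the Trem2-KO 3-month library 3. C3, the central complement component, rose by 2.47 ± 0.40 (SE; edgeR adjusted p = 0.00263), and Aspg, an asparaginase that marks reactive astrocytes, by 2.15 ± 0.25 (SE; edgeR adjusted p = 2.06e-05). H2-Ab1, Cd74 and H2-Aa, all of class II antigen presentation, are described below. Acss3, an enzyme that activates short-chain fatty acids, was at 1.1, 1.05 and 1.11 CPM at 3 months and 5.87, 5.08 and 2.23 CPM at 9 months, with library 3 nearest to the 3-month level. Cdh1, Slc6a12, Prg4 and Aldh1a2, at 2.23, 2.09, 1.97 and 1.86 on the log2 scale, were highest in the 9-month libraries 1 and 3. Aldh1a2 makes retinoic acid in the meninges and is in the fibroblast list. Calls of these 4 genes were lost in 8, 5, 5 and 2 of the 12 fits that each left out 1 library, with highest adjusted p values of 0.142, 0.121, 0.111 and 0.0697, each without library 2 or 3 at 3 months. When the fibroblast score was fitted as well, Cdh1 turned to -0.23.

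Microglial genes rose together in the absence of Trem2. Of 30 pan-microglial genes tested, Trem2 included, 25 rose and 0 fell, with a median log2 change of 0.78 (29, 0 and 1.29 in App-KI). Between 21 and 25 rose when any 1 Trem2-KO library was left out. Ctss, the cysteine protease cathepsin S, was at 66.1, 63.2 and 71.8 CPM at 3 months and 138, 166 and 143 CPM at 9 months and rose by 1.15 ± 0.068 (SE; edgeR adjusted p = 3.26e-09). C1qc, a chain of the complement recognition molecule C1q that microglia make, was at 36.7, 35.3 and 35.3 CPM at 3 months and 65.7, 63.4 and 65.9 CPM at 9 months and rose by 0.86 ± 0.061 (SE; edgeR adjusted p = 1.72e-08). In both genes every 9-month library lay above every 3-month library, with little spread within an age. Laptm5, a lysosomal membrane protein of blood-derived lineages, was at 38.6, 42 and 43 CPM at 3 months and 75.1, 89.8 and 81.7 CPM at 9 months and rose by 0.99 ± 0.066 (SE; edgeR adjusted p = 6.62e-09). C1qb, C1qa and Fcgr3, an activating Fc receptor, rose by 1.04 ± 0.073, 0.95 ± 0.079 and 1.0 ± 0.078 on the log2 scale. The score of the 30 genes was 3.01, 3.04 and 3.10 at 3 months and 3.79, 3.88 and 3.78 at 9 months. With the fibroblast score as a covariate the list median was 0.72 and 8 members were called, among them Ctss, Laptm5, C1qc, C1qb, C1qa and Fcgr3. Coro1a, Hpgds and Hcls1, the most abundant members that did not pass, had log2 values of -0.18, 0.36 and 0.41. Coro1a is also expressed by neurons.

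**Figure D2:**
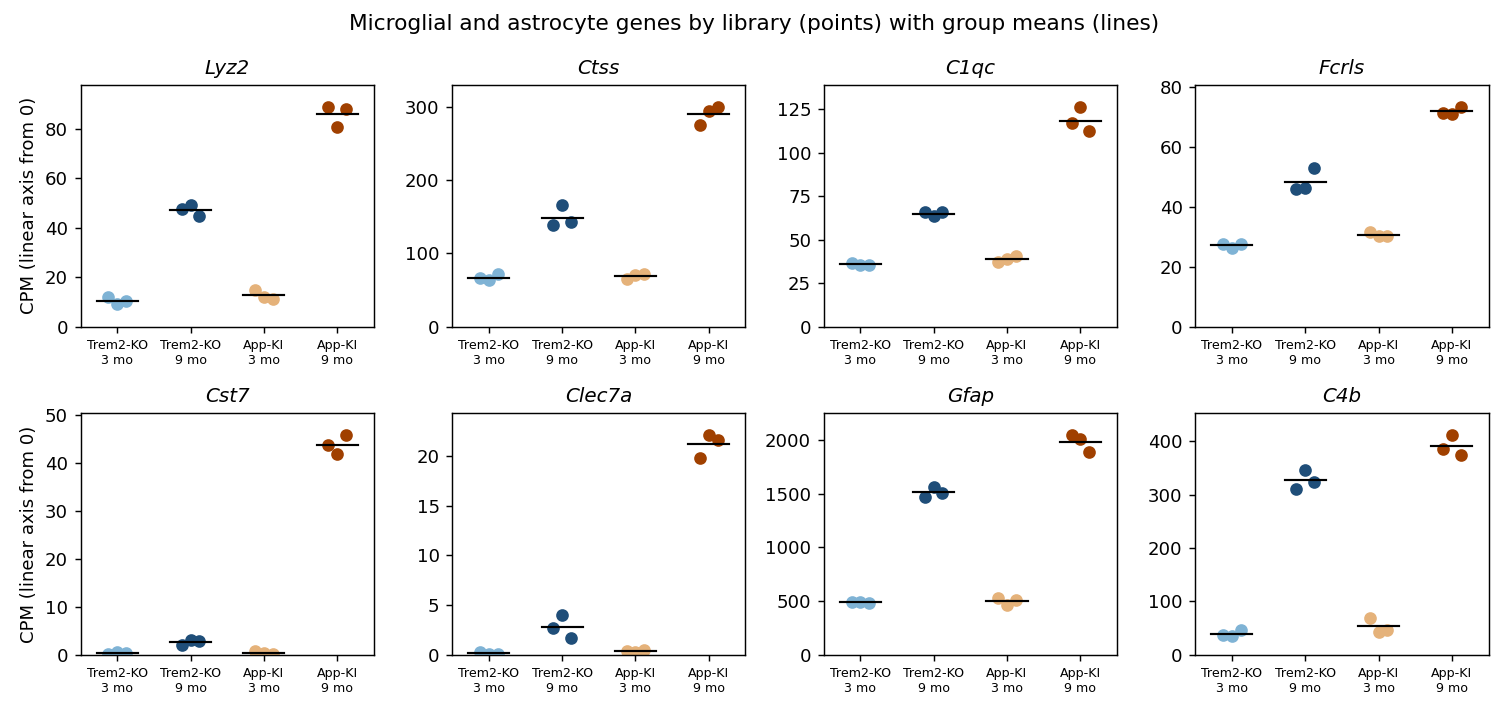
Levels in CPM of 8 microglial and astrocyte genes in each library (points) with group means (lines), on linear axes from 0. In the Trem2-KO libraries all 8 genes lie higher at 9 than at 3 months without overlap, and for Cst7 and Clec7a the Trem2-KO libraries at 9 months stay far below the App-KI libraries of that age. The difference between the 2 log2 age effects was not called for Clec7a, at -1.49 ± 0.73 (SE; edgeR adjusted p = 0.879).

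The upstream sequences of the microglial genes were searched for GAGGAAGT, a core of the motif bound by PU.1, the lineage factor of microglia and other myeloid cells. On either strand of the 250 bases before the RefSeq start site, 4 of 25 pan-microglial genes with a sequence held it (16%). The share was 2.79% of all 27025 genes with a sequence and 2.64% of tested genes with one. A gene counted if any of its listed windows held the motif. The list was drawn up as microglial genes, so this share describes the list and not the age effect. A pair of these windows is shown 5′ to 3′ on the gene's strand, from RefSeq on GRCm38.p6, a different build from that of the counts, with the match or its reverse complement in capitals. That of C1qc (called at 0.86) lies at chr4:136892915-136893164, minus strand. That of Inpp5d, the phosphatase SHIP1 that acts against TREM2 signalling (called at 0.58), lies at chr1:87620062-87620311, plus strand. Letters that match a motif do not show that the factor binds there.
C1qc: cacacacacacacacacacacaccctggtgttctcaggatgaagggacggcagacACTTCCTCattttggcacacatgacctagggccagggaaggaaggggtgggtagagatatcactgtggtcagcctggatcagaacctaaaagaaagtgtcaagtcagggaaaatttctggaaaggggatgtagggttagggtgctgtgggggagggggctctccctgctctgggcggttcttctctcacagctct
Inpp5d: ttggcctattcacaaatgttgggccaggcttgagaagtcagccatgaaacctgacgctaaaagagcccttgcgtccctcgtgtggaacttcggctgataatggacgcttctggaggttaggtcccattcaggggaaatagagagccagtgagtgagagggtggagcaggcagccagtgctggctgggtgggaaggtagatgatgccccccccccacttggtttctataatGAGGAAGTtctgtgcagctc

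Partners of TREM2 in signalling rose as well. Of 14 such genes tested, from a list of 20 and with Trem2 included, 8 rose and 0 fell (median 0.66). Tyrobp, the adaptor of TREM2 and of other receptors, was at 5.48, 5.23 and 5.93 CPM at 3 months and 14.6, 8.87 and 11.1 CPM at 9 months and rose by 1.06 ± 0.15 (SE; edgeR adjusted p = 0.000125). Its 9-month libraries were all above the 3-month ones but spread more widely. Inpp5d was at 17.4, 15.1 and 16.8 CPM at 3 months and 23.7, 25.2 and 24.7 CPM at 9 months and rose by 0.58 ± 0.08 (SE; edgeR adjusted p = 0.000116). Plcg2, the phospholipase downstream of the receptor, rose by 0.67 ± 0.12, Vav1, a guanine nucleotide exchange factor, by 0.77 ± 0.15 and Pik3cg, a phosphoinositide kinase, by 0.96 ± 0.15. The proteases Adam10 and Adam17, which can shed TREM2 from the cell surface, did not pass, at 0.099 and 0.22. In the fit with the fibroblast covariate, 0 of the 14 were called, at a median of 0.61.

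Homeostatic genes of microglia rose rather than fell: of 20 tested, 14 rose and 0 fell, with a median of 0.45 (16, 0 and 0.74 in App-KI). Fcrls, a scavenger receptor of microglia, was at 27.6, 26.3 and 27.6 CPM at 3 months and 45.9, 46.3 and 52.8 CPM at 9 months and rose by 0.83 ± 0.067 (SE; edgeR adjusted p = 9.07e-08), and Tmem119, a surface marker that border macrophages lack, rose by 0.51 ± 0.067. Csf1r, the receptor on which microglial survival depends, rose by 0.48 ± 0.058, Siglech by 0.57 ± 0.088 and Olfml3 by 0.75 ± 0.088. These 5 genes showed no overlap between the ages. The purinergic receptor P2ry12 and the fractalkine receptor Cx3cr1, named here after their values were seen, had smaller values. P2ry12 was called at 0.25 ± 0.071, although its libraries overlapped between the ages, and the call was lost in 4 of the 12 fits that each left out 1 library, with a highest adjusted p of 0.147 without the Trem2-KO 9-month library 3. Cx3cr1 did not pass, at 0.14 ± 0.07 (edgeR adjusted p = 0.250). Sparc, the most abundant member not called apart from Cst3, was at 0.18. Mef2c, a transcription factor that neurons also express, was at -0.19 and had the lowest value of the list. It was called lower without library 2 at 3 months or without library 1 at 9 months. Calls numbered 11 to 15 when any 1 Trem2-KO library was left out, and 5 with the fibroblast score as a covariate, where the median was 0.51.

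Genes of the DAM program rose in part. In the stage that does not need TREM2, 6 of 9 genes rose and 0 fell (median 0.39). They were Lyz2, Tyrobp, Ctsz, Apoe, Ctsb and Ctsd. Ctsz, a lysosomal carboxypeptidase, was at 33.1, 36.9 and 39.3 CPM at 3 months and 72.9, 77.3 and 64.5 CPM at 9 months and rose by 0.97 ± 0.073 (SE; edgeR adjusted p = 4.31e-08). Apoe, the main lipid carrier of the brain and mostly an astrocyte transcript, rose by a smaller 0.30 ± 0.052 (SE; edgeR adjusted p = 0.000977). The 3 that did not pass were Fth1 at -0.0034, Timp2 at 0.095 and B2m at 0.39. With the fibroblast score as a covariate 3 of the 9 were called, at a median of 0.36.

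In the TREM2-dependent stage, 14 of 27 genes rose and 2 fell (median 0.59). Among the 14 were Clec7a and Itgax, with 8 and 6 counts over the 3 libraries at 3 months. Genes with so few can pass the filter on low counts through their 9-month level, which limits this count. Ccl6, a chemokine, was at 2.12, 1.67 and 2.31 CPM at 3 months and 6.71, 6.04 and 7.37 CPM at 9 months and rose by 1.72 ± 0.15 (SE; edgeR adjusted p = 2.83e-07). Cd68, a macrophage glycoprotein of lysosomes, was at 9.32, 8.66 and 10.4 CPM at 3 months and 17.6, 20.4 and 17.4 CPM at 9 months and rose by 0.97 ± 0.11 (SE; edgeR adjusted p = 7.98e-06). In both the ages were separate in every library. Csf1, the ligand of CSF1R, rose by 0.70 ± 0.08, Capg, an actin-capping protein, by 1.29 ± 0.16, Gpnmb, a lysosomal glycoprotein, by 0.97 ± 0.15 and the inhibitory receptor Lilrb4a by 2.38 ± 0.35. Spp1, the secreted protein osteopontin, was at 15.2, 14.3 and 11.4 CPM at 3 months and 53.5, 25 and 54.7 CPM at 9 months, with library 2 at 9 months lower than the others, and the call was lost in 2 of the 12 fits that each left out 1 library, with a highest adjusted p of 0.0695 without the Trem2-KO 3-month library 3. The phagocytic receptor Axl rose by 0.32 ± 0.07. Both genes that fell, Fabp5 (-0.64 ± 0.12) and Cox6a2 (-1.04 ± 0.28), and also Spp1, Axl and Lpl, were named after their values were seen. Fabp5 is a fatty acid carrier that neural progenitors also express, and Cox6a2 a respiratory chain subunit, for which the call was lost in 3 of the 12 fits that each left out 1 library, with a highest adjusted p of 0.121 without the Trem2-KO 9-month library 2. Lpl, the lipoprotein lipase of the program, had -0.24 ± 0.08 (edgeR adjusted p = 0.0678). Calls higher numbered 4 with the fibroblast score as a covariate (Clec7a, Ccl6, Cd68 and Capg), with a median of 0.51, and 0 genes were lower. Without library 2 or 3 at 3 months or library 2 at 9 months, 1 gene of the list was lower.

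Lysosomal genes formed a broad group of smaller changes. Of 41 tested, 24 rose and 0 fell, with a median of 0.31. Ctss, Ctsz and Cd68 were among its leading genes and are shared with the microglial lists. Ctsd, the aspartic protease cathepsin D, was at 233, 276 and 262 CPM at 3 months and 493, 524 and 369 CPM at 9 months and rose by 0.85 ± 0.13 (SE; edgeR adjusted p = 0.00489), with library 3 at 9 months lowest of its age. Grn, the growth factor precursor progranulin, rose by 0.49 ± 0.058 and the lysosomal enzyme Hexa by 0.52 ± 0.066. Psap, Atp6ap1 and Gaa, the most abundant that were not called, had smaller values, 0.16, 0.037 and 0.083. Without library 2 at 9 months 15 members were called. When the fibroblast score was fitted as well, 10 were, and the list median was 0.45.

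The palindrome TCACGTGA, a core of the CLEAR element that TFEB and related factors bind at lysosomal genes, was looked for in the same windows. It was found for 5 of 33 lysosomal genes (15.2%), against 0.907% of all genes with a window and 1.56% of tested genes with one. The list was drawn up as lysosomal genes, so this share describes the list and not the age effect. The windows of the serine carboxypeptidase Ctsa (0.28) at chr2:164833523-164833772, plus strand and of Ctsd at chr7:142387828-142388077, minus strand are shown with the element in capitals, 13 and 99 bases before the start site.
Ctsa: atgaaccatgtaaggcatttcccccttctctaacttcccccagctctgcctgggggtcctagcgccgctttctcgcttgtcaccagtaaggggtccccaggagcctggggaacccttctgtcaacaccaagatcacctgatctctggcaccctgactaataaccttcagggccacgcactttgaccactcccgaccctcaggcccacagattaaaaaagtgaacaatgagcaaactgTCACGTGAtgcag
Ctsd: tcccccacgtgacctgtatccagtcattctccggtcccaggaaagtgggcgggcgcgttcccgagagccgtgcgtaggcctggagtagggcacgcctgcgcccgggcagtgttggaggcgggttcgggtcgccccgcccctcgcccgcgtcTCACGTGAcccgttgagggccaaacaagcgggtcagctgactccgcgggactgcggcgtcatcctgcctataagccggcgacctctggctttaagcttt

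Complement was among the lists with the largest shift. All 18 genes tested had a positive log2 value, 13 rose, and the median was 1.03. The initiating C1q chains and C4b are described above. C3ar1, the receptor for the C3a fragment, was at 2.06, 2.9 and 2.55 CPM at 3 months and 8.21, 8.87 and 7.64 CPM at 9 months and rose by 1.7 ± 0.14 (SE; edgeR adjusted p = 1.87e-07), and the 2 ages were far apart. Itgb2, the common chain of the complement receptors CR3 and CR4, rose by 1.14 ± 0.12. C3 was at 1.51, 0.923 and 0.964 CPM at 3 months and 5.56, 8.0 and 4.72 CPM at 9 months. The regulators Cd59a, Cd55 and Cfp did not pass, at 0.64, 0.38 and 0.37, and Cd59a and Cd55 were lowest in the 9-month library that stood apart. From 13 to 14 members rose when any 1 Trem2-KO library was left out. With the fibroblast score as a covariate 5 did, at a median of 0.92.

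Receptors for immune complexes and microbial patterns also rose, 10 of 14 genes tested with 0 falling and a median of 0.68. Tlr2 was at 1.16, 1.14 and 1.11 CPM at 3 months and 3.71, 4.5 and 3.08 CPM at 9 months and rose by 1.72 ± 0.23 (SE; edgeR adjusted p = 7.65e-05). Tlr13 rose by 1.17 ± 0.14, the inhibitory Fc receptor Fcgr2b by 1.32 ± 0.15 and Fcgrt, the neonatal Fc receptor, by 0.48 ± 0.091. Cd14, a co-receptor for lipopolysaccharide, rose by 0.67 ± 0.17, but the call was lost in 3 of the 12 fits that each left out 1 library, with a highest adjusted p of 0.0881 without the Trem2-KO 3-month library 2. Without library 3 at 3 months 7 members of the list were called and without library 2 at 3 months 5, and with the fibroblast score as a covariate 3 were called (Fcgr3, Tlr2 and Tlr13). Among 18 chemokines, cytokines and their kin tested, from a list of 25, 9 rose and 1 fell (median 0.77). The 1 that fell was Cx3cl1 (-0.24 ± 0.055), the neuronal ligand of CX3CR1, named after its value was seen. Its call was lost in 2 of the 12 fits that each left out 1 library, with a highest adjusted p of 0.0739 without the Trem2-KO 3-month library 3. Il33, an alarmin of oligodendrocytes and astrocytes, was at 65.7, 64.8 and 68.4 CPM at 3 months and 126, 124 and 107 CPM at 9 months and rose by 0.84 ± 0.095 (SE; edgeR adjusted p = 0.000109). Cxcl16 rose by 1.39 ± 0.21 and Cxcl12 by 0.42 ± 0.075. Ccl4 had 2 counts in the 3 libraries at 3 months and 29 at 9 months, a ratio of 13.5 with a 95% exact interval of 3.42 to 117. The filter on low counts does not ask for counts at 3 months, so such a gene can enter through its 9-month level. Counts of genes that rose in this list, and in any other list with genes of so few counts at 3 months, are limited by that. The median of this list was 0.51 without library 2 at 3 months and 0.47 without library 3 at 9 months, where 7 and 8 members rose. Fitted with the fibroblast covariate, it was 0.40, with 1 member higher and 0 lower.

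Interferon-stimulated genes showed a uniform direction with modest sizes. All 39 tested were positive, with a median of 0.66, and 13 rose. Parp14 was at 1.71, 1.32 and 1.83 CPM at 3 months and 3.71, 3.55 and 4.14 CPM at 9 months and rose by 1.23 ± 0.20 (SE; edgeR adjusted p = 0.000703). Irf9, a subunit of the interferon-activated complex ISGF3, was at 13.8, 11.4 and 16.2 CPM at 3 months and 19.7, 23.4 and 20.3 CPM at 9 months and rose by 0.62 ± 0.12 (SE; edgeR adjusted p = 0.00233), and Ddx58, the RNA sensor RIG-I, by 0.57 ± 0.12. Oas2, a sensor of double-stranded RNA, was at 0.822, 0.527 and 0.289 CPM at 3 months and 1.5, 1.82 and 2.81 CPM at 9 months, a low level in all libraries but with no overlap. The group was sensitive to single libraries: 6 members rose without library 2 at 3 months and 15 without library 3 of that age. Abundant Ifi27, Cmpk2 and Ifit3 did not pass, at 0.55, 0.033 and 0.87. In the fit with the fibroblast covariate, the median was 0.67 and 0 members were called.

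The interferon-sensitive response element, searched on both strands as GAAA, any 2 bases and GAAA again, was present in 16 of 29 interferon-stimulated genes with a window (55.2%), against 3.46% of all genes with a window and 3.09% of tested genes with one. The list was drawn up as interferon targets, so this share describes the list and not the age effect. The windows of Stat2, another subunit of ISGF3 (called at 0.31, for which the call was lost in 2 of the 12 fits that each left out 1 library, with a highest adjusted p of 0.102 without the Trem2-KO 3-month library 2), at chr10:128270248-128270497, plus strand, and of Ifi207, a family member of Ifi204 whose reads may be shared with it (called at 1.81), at chr1:173741810-173742059, minus strand, are shown with the element in capitals. In Stat2 the match is on the opposite strand.
Stat2: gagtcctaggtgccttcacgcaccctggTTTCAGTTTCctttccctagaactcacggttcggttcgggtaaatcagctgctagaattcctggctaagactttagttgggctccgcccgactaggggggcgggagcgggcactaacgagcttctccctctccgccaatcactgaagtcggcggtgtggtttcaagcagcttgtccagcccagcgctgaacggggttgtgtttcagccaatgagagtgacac
Ifi207: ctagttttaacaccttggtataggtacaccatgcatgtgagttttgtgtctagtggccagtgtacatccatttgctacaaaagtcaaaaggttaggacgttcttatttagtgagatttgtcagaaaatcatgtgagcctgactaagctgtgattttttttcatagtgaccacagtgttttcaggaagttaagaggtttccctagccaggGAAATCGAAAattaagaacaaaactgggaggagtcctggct

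Antigen presentation rose in both of its classes. For class II, which presents peptides to CD4+ T cells, 6 of 9 genes rose and 0 fell, with a median of 1.14. H2-Ab1 was at 2.33, 1.41 and 1.69 CPM at 3 months and 9.84, 9.01 and 8.91 CPM at 9 months and rose by 2.39 ± 0.37 (SE; edgeR adjusted p = 0.00346), and H2-Eb1 was at 2.67, 1.49 and 1.54 CPM at 3 months and 6.97, 5.27 and 5.89 CPM at 9 months and rose by 1.71 ± 0.26 (SE; edgeR adjusted p = 0.000455). Cd74, the invariant chain, was at 12.4, 5.19 and 6.6 CPM at 3 months and 36.5, 35.2 and 34.3 CPM at 9 months, where library 1 was the highest at 3 months and the 9-month values were close together. The co-stimulator Cd86 rose by 1.04 ± 0.16 and the peptide-loading gene H2-DMb1 by 1.14 ± 0.21. The master regulator Ciita did not pass, at 0.23, nor did H2-DMa, at 0.058. For Cd74 (log2 change 2.19 ± 0.43), the call was lost in 3 of the 12 fits that each left out 1 library, with a highest adjusted p of 0.0848 without the Trem2-KO 3-month library 3. For H2-Aa (2.14 ± 0.45), the call was lost in 3 of the 12 fits that each left out 1 library, with a highest adjusted p of 0.0927 without the Trem2-KO 3-month library 3. When the fibroblast score was fitted as well, the class II median was 0.77 and 0 members were called.

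For class I, which displays peptides from inside the cell, 11 of 17 genes rose and 0 fell (median 0.84). H2-D1 was at 75.9, 61.9 and 86.6 CPM at 3 months and 114, 124 and 142 CPM at 9 months and rose by 0.76 ± 0.14 (SE; edgeR adjusted p = 0.0101). Tapbp, which loads peptides, rose by 0.45 ± 0.068, Psmb8, an immunoproteasome subunit, by 1.09 ± 0.22, and the transporter Tap2 by 0.54 ± 0.12. H2 genes are close copies of each other, so the split of reads between them is uncertain. From 6 to 12 members were called when any 1 Trem2-KO library was left out, 6 without library 2 at 3 months and 7 without library 2 at 9 months. With the fibroblast score as a covariate the median was 0.35 and 0 members were called.

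The Y box CTGATTGG, bound by NF-Y in class I and II promoters, was present in 3 of 5 class II genes (60%) and 6 of 15 class I genes (40%) with a window. It was present in 4.43% of all genes with a window and 6.07% of tested genes with one. Both lists were drawn up as antigen presentation genes, so these shares describe the lists and not the age effect. The windows of H2-Eb1 at chr17:34305617-34305866, plus strand and H2-Aa at chr17:34287824-34288073, minus strand hold it 62 and 51 bases before the start site, in capitals.
H2-Eb1: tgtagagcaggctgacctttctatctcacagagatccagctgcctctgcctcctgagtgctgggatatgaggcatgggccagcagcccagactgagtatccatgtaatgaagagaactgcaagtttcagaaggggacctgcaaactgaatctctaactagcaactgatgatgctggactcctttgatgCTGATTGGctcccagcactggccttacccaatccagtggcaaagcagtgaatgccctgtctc
H2-Aa: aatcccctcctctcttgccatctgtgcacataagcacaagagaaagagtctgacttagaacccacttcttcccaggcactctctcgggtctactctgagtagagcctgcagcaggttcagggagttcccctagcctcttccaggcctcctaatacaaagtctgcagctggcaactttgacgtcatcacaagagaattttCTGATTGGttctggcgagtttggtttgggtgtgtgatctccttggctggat

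Astrocyte genes of the reactive state rose with age. Of 29 in that list, 18 rose and 0 fell (median 0.67). Gfap, the intermediate filament of astrocytes, was at 496, 487 and 486 CPM at 3 months and 1469, 1563 and 1511 CPM at 9 months and rose by 1.63 ± 0.054 (SE; edgeR adjusted p = 4.54e-14), or 3.09-fold, with no overlap. Osmr, the oncostatin M receptor, was at 8.15, 7.3 and 10.4 CPM at 3 months and 19.8, 23.4 and 25.1 CPM at 9 months and rose by 1.4 ± 0.12 (SE; edgeR adjusted p = 1.81e-07). Stat3, a transcription factor of the reactive state, rose by 0.54 ± 0.051 and the filament gene Vim by 0.87 ± 0.11. With the fibroblast score as a covariate 4 of the 29 were called (Gfap, Osmr, Stat3 and C4b), and the median was 0.41. S1pr3, Hspb1 and S100a10 did not pass, at 0.31, 0.16 and -0.085. Of 21 general astrocyte genes 7 rose and 0 fell (median 0.15), among them the water channel Aqp4 by 0.31 ± 0.061 and S100b by 0.47 ± 0.072. The glutamate transporter Slc1a2 and the gap junction gene Gja1 did not pass, at 0.024 and -0.026. Without library 3 at 3 months 4 of the 21 rose, and with the fibroblast covariate 0 did, at a median of 0.095.

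Oligodendrocyte genes moved in both directions. Of 18 genes described in plaque-responsive oligodendrocytes, 7 rose and 1 fell (median 0.37). Besides C4b and Il33 they included Serpina3n, a protease inhibitor, which rose by 0.30 ± 0.067, Anxa3 by 0.60 ± 0.083 and Klk6, a myelin-associated protease, by 1.26 ± 0.27. Of the 18, fitted with the fibroblast covariate, 1 was higher and 0 lower, at a median of 0.38. In the fit of only the Trem2-KO libraries 2 were lower. Of 24 myelin genes, 2 rose and 4 fell (median -0.13). Hapln2, of the nodal matrix, was at 24.4, 27.1 and 28.5 CPM at 3 months and 47, 43.2 and 35.7 CPM at 9 months and rose by 0.65 ± 0.099 (SE; edgeR adjusted p = 0.000410). Opalin, a membrane glycoprotein of myelinating cells, was at 36.3, 31.3 and 34.3 CPM at 3 months and 19.1, 22.7 and 18.8 CPM at 9 months and changed by -0.75 ± 0.15 (SE; edgeR adjusted p = 0.00875), and it is the 1 that fell in the first list too. The abundant myelin transcripts Mbp and Mobp did not pass, at -0.11 and -0.11. Cldn11 (-0.45) and Mog (-0.60) were also called lower, but each lost its call in 7 or more of the 12 fits that left out 1 library, and 1 to 3 myelin genes fell when any 1 Trem2-KO library was left out, the 3 without library 2 at 9 months, where the median was -0.23. Without library 3 at 9 months 5 rose. In the fit of only the Trem2-KO libraries 8 fell, with the choroid score as a covariate 2 did, and with the fibroblast score 0 rose and 0 fell, at a median of -0.48. Of 20 precursor genes, 2 rose and 2 fell. Gpr17, which marks cells that are about to myelinate, was at 47.2, 52.5 and 47.5 CPM at 3 months and 32.6, 37.1 and 40.4 CPM at 9 months and changed by -0.42 ± 0.088 (SE; edgeR adjusted p = 0.00528). The number of precursor genes that rose was 1 without library 1 at 3 months or library 3 at 9 months and 0 without any other 1 of the 6, and 1 fell without library 1 of either age. With the fibroblast covariate 0 rose and 0 fell.

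Of 26 genes of immature neurons, 11 fell and 0 rose, with a median of -0.27. Dcx, which marks newborn granule neurons of the dentate gyrus, was at 14.9, 14.5 and 11.6 CPM at 3 months and 8.96, 7.91 and 10.2 CPM at 9 months and changed by -0.60 ± 0.13 (SE; edgeR adjusted p = 0.00722). Sox11, a transcription factor of neuroblasts, was at 48, 40.8 and 42.4 CPM at 3 months and 32.2, 31.2 and 33.8 CPM at 9 months and changed by -0.43 ± 0.078 (SE; edgeR adjusted p = 0.00153). Both sets of 3 values were apart. Dpysl3, Tubb3 and Stmn2, cytoskeletal genes of growing neurites, changed by -0.54 ± 0.08, -0.39 ± 0.057 and -0.35 ± 0.057, and Igfbpl1, at 2.54, 1.98 and 2.31 CPM at 3 months and 0.927, 0.815 and 0.212 CPM at 9 months, by -1.75 ± 0.39. Nnat, Ncam1 and Neurod2, which mature neurons also express, did not pass, at 0.037, -0.10 and -0.044. From 7 to 13 members fell when any 1 Trem2-KO library was left out, the fewest without library 3 at 3 months. In the fit with the fibroblast covariate, the median stayed at -0.27 and 0 were called.

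Of 28 cell cycle genes, 1 rose and 3 fell (median -0.19). Top2a, the topoisomerase of dividing cells, was at 2.81, 2.68 and 2.6 CPM at 3 months and 1.32, 1.1 and 0.902 CPM at 9 months and changed by -1.27 ± 0.27 (SE; edgeR adjusted p = 0.00513), the lowest log2 value of the 15 lowest genes that the naming rule selects. The remaining calls were Rrm2 (-0.63) and H2afz (-0.24), lower, and Mcm4 (0.32), higher. Each of these 3 lost its call in 4 or more of the 12 fits that left out 1 library. Ccnd2, Pcna and Mcm6 did not pass, at -0.13, -0.075 and 0.081. Without library 3 at 3 months or library 2 at 9 months 1 member fell, as in the fit of only the Trem2-KO libraries, and the median was -0.32 without library 1 at 9 months. With the fibroblast covariate 0 rose and 0 fell.

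**Figure D3:**
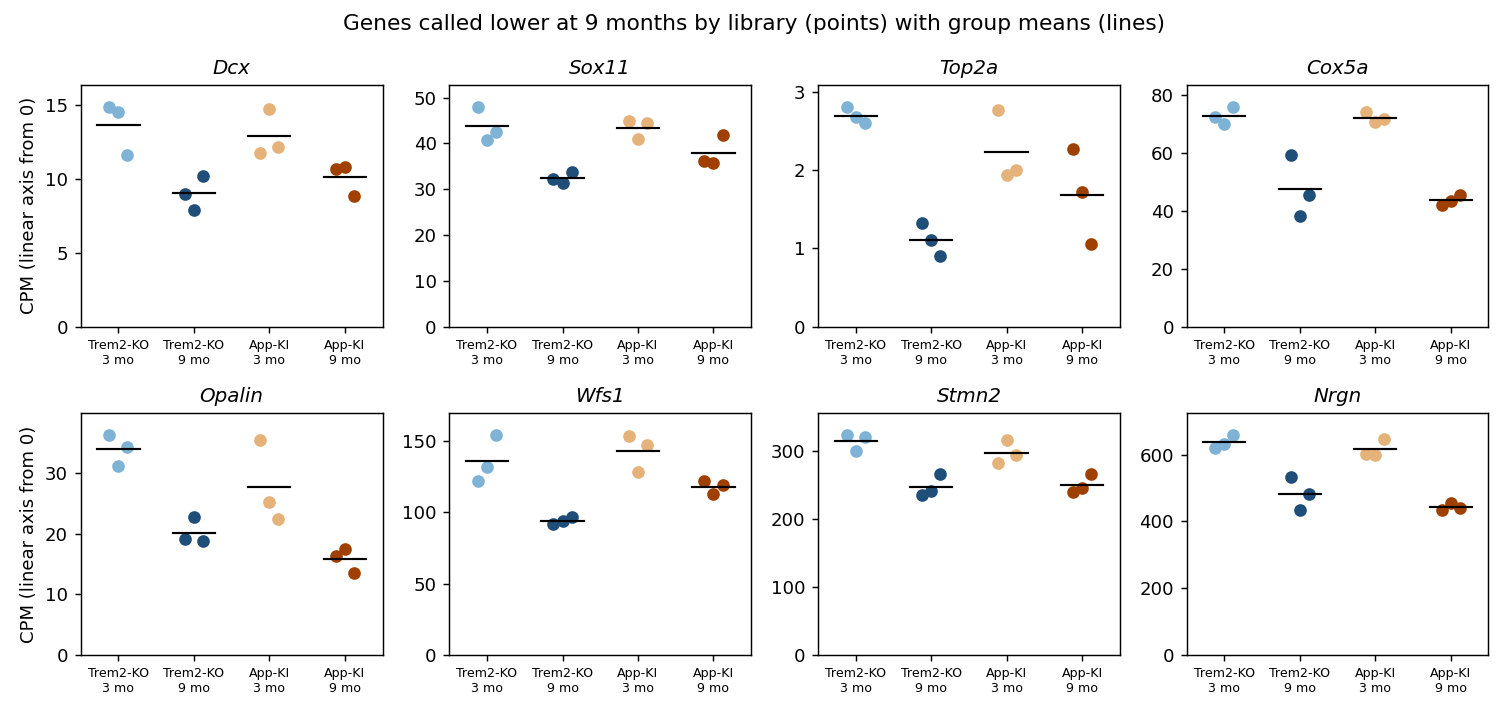
Levels in CPM of 8 genes called lower at 9 months in Trem2-KO, in each library (points) with group means (lines), on linear axes from 0. The 3 Trem2-KO libraries at 9 months lie below the 3 at 3 months in every panel, and the App-KI libraries of the same ages are drawn beside them.

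The other genes with the lowest log2 changes came from no list in common. Gamt, which completes creatine synthesis, was at 15.5, 15.2 and 13.2 CPM at 3 months and 8.34, 8.53 and 8.43 CPM at 9 months and changed by -0.79 ± 0.11 (SE; edgeR adjusted p = 0.000152). Tnc, the matrix protein tenascin C, was at 8.29, 8.0 and 8.92 CPM at 3 months and 5.25, 4.07 and 5.3 CPM at 9 months and changed by -0.78 ± 0.17 (SE; edgeR adjusted p = 0.00609). Cbx8, a Polycomb protein, was at 11.1, 12.2 and 14.2 CPM at 3 months and 7.41, 7.38 and 7.37 CPM at 9 months and changed by -0.76 ± 0.12 (SE; edgeR adjusted p = 0.000469), and its 9-month libraries were nearly identical. Dctpp1, a nucleotide pyrophosphatase, changed by -1.02 ± 0.19, Smim18 by -0.95 ± 0.20, Pgam2, a phosphoglycerate mutase, by -0.81 ± 0.15, Rnf122 by -0.76 ± 0.12, Gpr165 by -0.75 ± 0.16 and Fxyd7, a regulator of the sodium pump, by -0.89 ± 0.17. Fgf16, Fst, Serf1 and Zfp853, at -0.92, -0.91, -0.78 and -0.76, lost their calls in 4, 3, 1 and 2 of the 12 fits that left out 1 library.

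Calls among synaptic and neuronal identity genes were lower with 1 exception. Of 27 genes of excitatory synapses 0 rose and 3 fell (median -0.10). Nrgn, a calmodulin-binding protein of dendritic spines, was at 621, 633 and 659 CPM at 3 months and 532, 435 and 482 CPM at 9 months and changed by -0.40 ± 0.06 (SE; edgeR adjusted p = 0.000260). The others called were Syp (-0.18) and Grm2 (-0.27), each of which lost its call in 4 of the 12 fits. Snap25, Camk2a and Slc17a7 did not pass, at -0.077, -0.14 and -0.13. The number of synaptic genes that fell was 5 without library 1 at 3 months and 1 without library 2 or 3 at 3 months or library 2 at 9 months. Of 27 genes of inhibitory neurons 1 rose, the nitric oxide synthase Nos1 by 0.39 ± 0.083, and 7 fell (median -0.10), of which 2 fell without library 1 or 3 at 3 months or library 2 at 9 months, 3 to 5 without any other 1 of the 6, and 4 in the fit of only the Trem2-KO libraries. The peptides Npy and Vip were called at -0.49 and -0.41 and lost their calls in 5 and 3 of the 12 fits, while Gad1 did not pass at 0.011. Of 21 genes of hippocampal fields 0 rose and 4 fell. Wfs1, an endoplasmic reticulum protein of CA1 pyramidal cells, was at 122, 132 and 154 CPM at 3 months and 91.5, 93.7 and 96.8 CPM at 9 months and changed by -0.53 ± 0.078 (SE; edgeR adjusted p = 0.000500). Neurod6, a transcription factor of pyramidal cells, changed by -0.32 ± 0.061, while Calb1 was at -0.099. Of the hippocampal genes 2 fell without library 3 at 3 months or library 2 at 9 months. In these 3 lists 0 genes rose and 0 fell with the fibroblast covariate.

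Nuclear genes of the respiratory chain had mostly negative values of small size. Of 33 tested 0 rose and 8 fell, 1 had a positive value, and the median was -0.29. Uqcrb, of complex III, was at 48.7, 55.1 and 55.9 CPM at 3 months and 43.4, 34.3 and 39.6 CPM at 9 months and changed by -0.45 ± 0.088 (SE; edgeR adjusted p = 0.00346). Cycs, cytochrome c, was at 131, 134 and 137 CPM at 3 months and 120.2, 103 and 109.8 CPM at 9 months and changed by -0.27 ± 0.059 (SE; edgeR adjusted p = 0.00672). Cox5a, of complex IV, was at 72.4, 69.8 and 75.8 CPM at 3 months and 59.2, 38 and 45.2 CPM at 9 months, where the ages were separate but library 1 at 9 months was nearest to 3 months. Atp5b, Atp5a1 and Sdha, the most abundant of the list that were not called, were nearer to 0, at -0.028, -0.064 and 0.061. The number that fell was 18 without library 1 at 9 months, 4 without library 2 at 9 months, 5 without library 2 or 3 at 3 months and 4 in the fit of only the Trem2-KO libraries. With the fibroblast covariate 0 fell, at a median of -0.37. Ribosomal protein genes gave 0 that rose and 2 that fell of 32, with a median of -0.22, and 20 that fell without library 1 at 9 months. Their median was -0.12 without library 2 at 9 months and -0.43 with the fibroblast covariate, with 0 and 1 called lower. Without library 2 or 3 at 3 months, or in the fit of only the Trem2-KO libraries, 0 fell, and 4 fell with the choroid covariate. Among 12 mitochondrially encoded genes 0 rose and 2 fell, mt-Nd1 by -0.25 ± 0.053 and mt-Nd2 by -0.27 ± 0.061, and for mt-Nd2 the call was lost in 2 of the 12 fits that each left out 1 library, with a highest adjusted p of 0.0702 without the Trem2-KO 9-month library 2. Of the 12, 5 fell without library 1 at 9 months and 0 with the fibroblast covariate.

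Transcript length moved with these changes. Tested genes with a transcript in GENCODE M21 (98.0%) were split by their longest transcript. The 4693 with the shortest (59 to 1864 bases) had a median log2 change of -0.0796 in Trem2-KO. Of these, 4.65% were called lower and 2.54% higher. The 4692 genes with the longest (from 4498 bases) had 0.0399, with 2.20% lower and 7.69% higher. In App-KI the medians of these 2 sets were -0.0748 and 0.0182. The median length was 1661 bases for the respiratory chain genes, 1124 for ribosomal protein genes and 3378.5 for immature neuron genes. The part of length in these results was not tested.

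Genes of vessels, meninges and the macrophages at their border rose in Trem2-KO. Of 32 meningeal and perivascular fibroblast genes, 15 rose and 0 fell (median 1.03). Aebp1, a collagen-binding protein, was at 20.4, 20.4 and 16 CPM at 3 months and 57.9, 43.5 and 56.9 CPM at 9 months and rose by 1.48 ± 0.19 (SE; edgeR adjusted p = 0.00138). Ogn, a small proteoglycan of the meninges, was at 15.2, 12.4 and 8.58 CPM at 3 months and 37.7, 24.1 and 41.9 CPM at 9 months and rose by 1.53 ± 0.27 (SE; edgeR adjusted p = 0.00890), with library 2 the lowest at 9 months. Fbln1, a matrix glycoprotein, was at 14.7, 18 and 17 CPM at 3 months and 31.6, 24.7 and 26.6 CPM at 9 months and rose by 0.73 ± 0.10 (SE; edgeR adjusted p = 0.000163). Slc6a20a and Crabp2 rose by 1.21 ± 0.21 and 1.64 ± 0.32. Dcn, Ptgds and Igfbp2, the most abundant that did not pass, were at 0.38, 1.25 and 0.97. The fibroblast count was 5 without library 3 at 3 months, 6 without library 2 at 3 months and 8 without library 1 at 9 months.

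Of 13 border macrophage genes tested, from a list of 19, all were positive and 5 rose (median 1.25). Stab1, a scavenger receptor, was at 9.94, 11.9 and 10.6 CPM at 3 months and 23.6, 20.2 and 23.2 CPM at 9 months and rose by 1.04 ± 0.12 (SE; edgeR adjusted p = 2.01e-05). F13a1 and the haemoglobin scavenger receptor Cd163 rose by 1.47 ± 0.26 and 1.26 ± 0.26, and the mannose receptor Mrc1 by 0.91 ± 0.24, for which the call was lost in 4 of the 12 fits that each left out 1 library, with a highest adjusted p of 0.135 without the Trem2-KO 3-month library 3. Of 24 endothelial genes 7 rose and 0 fell (median 0.28). Kdr, the main receptor for vascular endothelial growth factor, was at 19.7, 20.4 and 18.4 CPM at 3 months and 32.3, 33.8 and 28.7 CPM at 9 months and rose by 0.70 ± 0.094 (SE; edgeR adjusted p = 9.17e-05). Flt1 rose by 0.33 ± 0.056, Eng by 0.39 ± 0.086 and the glucose transporter Slc2a1 by 0.29 ± 0.063. Vwf, a clotting factor of larger vessels, was at 24.1, 18.9 and 20.2 CPM at 3 months and 58.5, 51.4 and 56.9 CPM at 9 months (log2 change 1.41 ± 0.31), with wide separation between the ages, yet the call was lost in 6 of the 12 fits that each left out 1 library, with a highest adjusted p of 0.110 without the Trem2-KO 3-month library 3. Without library 3 at 3 months 4 endothelial genes rose. Of 16 mural cell genes 3 rose (median 0.44), Anpep, Pdgfrb and Vtn at 0.99, 0.34 and 0.83, which lost their calls in 1, 1 and 8 of the 12 fits. Without library 2 or 3 at 3 months 1 mural gene rose. With the choroid score as a covariate 6 mural and 8 border macrophage genes did. When the fibroblast score was fitted as well, the medians were -0.12 for fibroblasts, 0.17 for border macrophages, 0.14 for endothelium and -0.20 for mural cells, with 0 members called in any of the 4, and Crabp2, Mrc1 and Vtn turned negative. For fibroblasts this is built in, since the score is the mean of the same genes. All 21 choroid plexus genes were positive (median 1.08) but 0 were called and 0 reached an unadjusted p under 0.05. Their score was 6.12, 6.2 and 2.05 in the 9-month libraries. With the fibroblast covariate the choroid median was 3.47 and 0 were called, and with the choroid score, the mean of the same genes, it was 0.096, with 3 higher and 2 lower.

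The age effect was then compared with that of App-KI mice, which shares no library with it. In App-KI 1276 genes were called (6.66%), 757 higher (3.95%) and 519 lower (2.71%). Genes called in both numbered 672, which is 40.3% of the calls in Trem2-KO and 52.7% of those in App-KI. Of these, 439 rose in both, 232 fell in both, and 1 had opposite signs, the predicted gene Gm42047, which changed by -1.36 in Trem2-KO and 1.38 in App-KI and was named after its value was seen. The difference of the 2 age effects, tested as an interaction term, was called for 51 genes (0.266%), 11 higher in Trem2-KO (0.0574%) and 40 lower (0.209%). For 37 of the 51 both effects were positive and the one in Trem2-KO was smaller. A total of 42 of the 51 were also called higher with age in Trem2-KO. Between 29 and 76 differences were called when any 1 of the 12 libraries was left out, the fewest without library 3 at 3 months and the most without library 2 at 9 months of Trem2-KO, and 3 with the fibroblast score as a covariate. Differences higher in Trem2-KO numbered 29 without library 2 at 9 months of Trem2-KO, and 3 without library 3 at 3 months of Trem2-KO or library 3 at 9 months of App-KI.

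**Figure D4:**
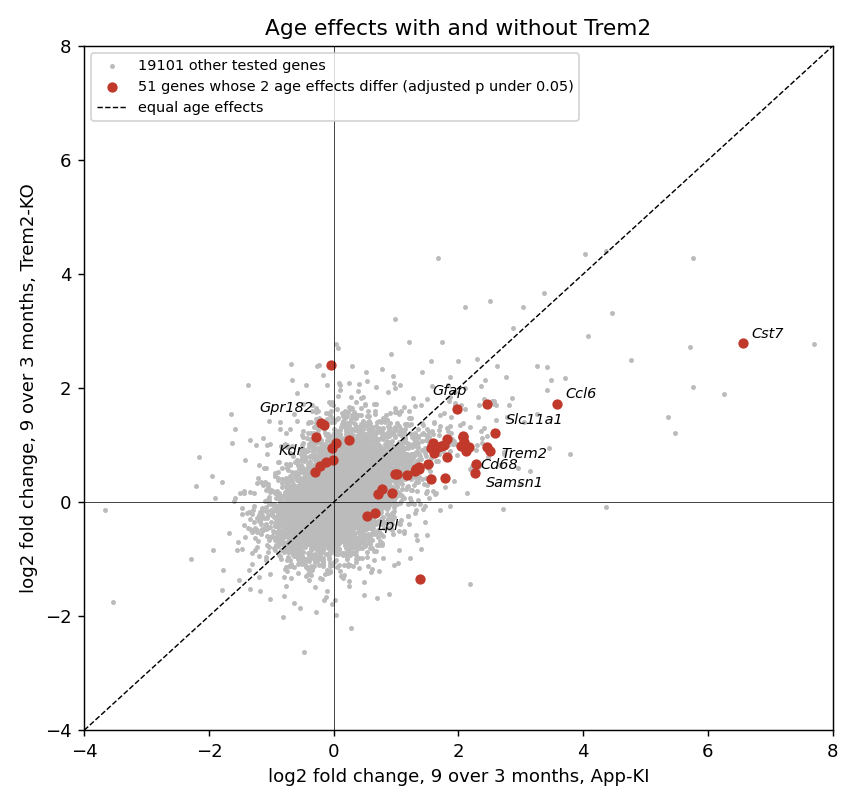
Log2 change from 3 to 9 months in App-KI (horizontal) and Trem2-KO (vertical) for all 19152 tested genes, with the 51 genes whose age effects differed in red and the line of equal effects dashed. Most red points, such as Cst7, Ccl6 and Trem2, lie to the right of the line with positive effects in both genotypes, and a smaller group including Gpr182 and Kdr lies near 0 in App-KI and above it in Trem2-KO.

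Most of the largest differences that the naming rule selects were in myeloid genes. Cst7 rose from 0.856, 0.343 and 0.0976 CPM to 43.7, 41.8 and 45.9 CPM in App-KI and from 0.206, 0.484 and 0.386 to 2.03, 3.07 and 2.86 in Trem2-KO, a difference of -3.77 ± 0.67 (SE; edgeR adjusted p = 0.0403) between log2 age effects. Ccl6 differed by -1.85 ± 0.21 (SE; edgeR adjusted p = 0.000108), with 3.58 in App-KI against 1.72. Cd14 differed by -1.62 ± 0.24 (SE; edgeR adjusted p = 0.00164), Samsn1, a signalling adaptor, by -1.76 ± 0.25 (SE; edgeR adjusted p = 0.00109), and Gpnmb by -1.49 ± 0.21 (SE; edgeR adjusted p = 0.00127). Samsn1 was at 2.88, 3.16 and 2.99 CPM at 3 months and 3.62, 5.56 and 3.77 CPM at 9 months in Trem2-KO and did not pass there (edgeR adjusted p = 0.0732), while its change in App-KI was 2.27. In the TREM2-dependent DAM list 6 of 27 genes differed, all lower in Trem2-KO (Cst7, Ccl6, Gpnmb, Cd68, Lpl and Gusb), in the first-stage list 2 of 9 (Ctsz and Tyrobp) and among pan-microglial genes 12 of 30. These 12 include Trem2, the gene that was knocked out. Homeostatic genes gave 4 of 20, among them Csf1r, Selplg and Cx3cr1, again lower in Trem2-KO. Cx3cr1 was at 31.6, 33.6 and 37.4 CPM at 9 months in Trem2-KO and 55.1, 54.2 and 57.1 in App-KI, with a difference of -0.57 ± 0.098 (SE; edgeR adjusted p = 0.00807). Among 29 reactive astrocyte genes 2 differed, Cd14 and Gfap, and the difference for Gfap was -0.35 ± 0.074 (SE; edgeR adjusted p = 0.0409). Of the 32 differences named here and in the closing observations, 17 were called in all 12 fits that left out 1 library, among them Ccl6, Cd68, Ctss, Csf1r, C1qc, Trem2 and Cx3cr1. The call for Cst7 was lost in 9 of these fits, with an adjusted p of up to 0.410 without library 2 at 3 months of Trem2-KO, that for Gfap in 8 (0.175 without library 2 at 3 months of App-KI), that for Tyrobp in 8 (0.133 without library 3 at 3 months of Trem2-KO) and that for Selplg in 7 (0.161 without the same library). Gusb and Gm42047 lost theirs in 3 and 4 fits, at up to 0.0715 and 0.0575, both without library 2 at 3 months of Trem2-KO. With the fibroblast covariate the differences still called included those of C1qc and Trem2.

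Several groups had no called difference. None of 39 interferon genes was called, with a median difference of 0.16, nor any of 17 class I and 9 class II genes, with medians of -0.26 and -0.86. The class II median was 1.14 in Trem2-KO and 2.72 in App-KI, and single differences such as -1.52 for Cd74 had an SE of 0.60. C4b differed by 0.18 ± 0.25 (SE; edgeR adjusted p = 0.992). Neither respiratory chain, ribosomal nor immature neuron genes had a called difference, and their medians were -0.29, -0.22 and -0.27 in Trem2-KO beside -0.28, -0.25 and -0.26 in App-KI. A p that misses the threshold does not show that the effects were equal.

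**Figure D5:**
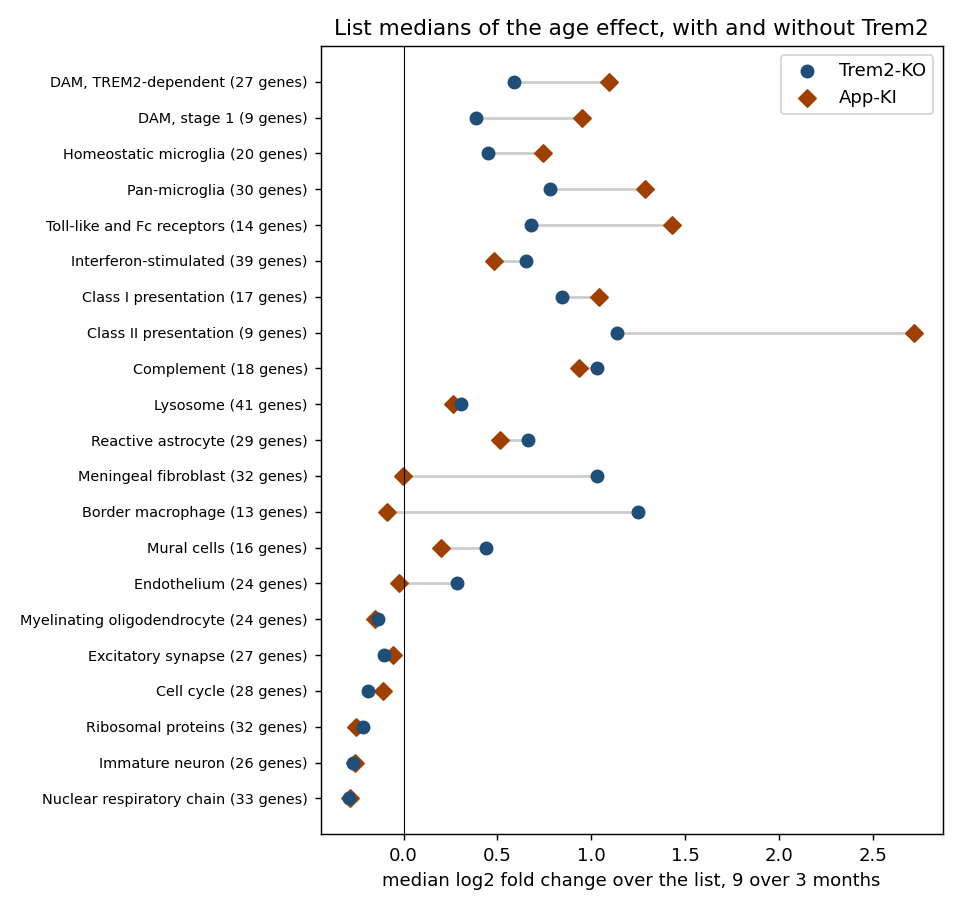
Median log2 change from 3 to 9 months over the tested members of 21 gene lists, in Trem2-KO (circles) and App-KI (diamonds). Microglial and class II medians are smaller in Trem2-KO, fibroblast and border macrophage medians are above 1 in Trem2-KO and near 0 in App-KI, and the medians of respiratory chain, ribosomal and immature neuron genes nearly coincide.

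Among the 11 genes with a larger age effect in Trem2-KO, those the naming rule selects were Gpr182, Aox3, Lef1, Kdr and Fbln1. Gpr182, a chemokine-scavenging receptor of endothelium, was at 3.91, 2.81 and 3.18 CPM at 3 months and 9.93, 7.0 and 8.64 CPM at 9 months in Trem2-KO and 5.46, 3.37 and 4.73 then 3.69, 4.93 and 3.21 CPM in App-KI, a difference of 1.59 ± 0.29 (SE; edgeR adjusted p = 0.0134). Aox3, an aldehyde oxidase, was at 2.54, 2.9 and 1.98 CPM at 3 months and 7.9, 5.99 and 4.93 CPM at 9 months and differed by 1.5 ± 0.31 (SE; edgeR adjusted p = 0.0385). Lef1, a factor of Wnt signalling in thalamic neurons and brain endothelium, differed by 0.83 ± 0.17 (SE; edgeR adjusted p = 0.0336), Kdr by 0.82 ± 0.13 (SE; edgeR adjusted p = 0.00476) and Fbln1 by 0.75 ± 0.15 (SE; edgeR adjusted p = 0.0305). The call for Kdr was kept in all 12 fits that left out 1 library, while those for Lef1, Fbln1, Aox3 and Gpr182 were lost in 10, 8, 7 and 4 of them, with highest adjusted p values of 0.113 (without library 2 at 9 months of App-KI), 0.119 (without library 3 of that group), 0.170 and 0.0594 (both without library 3 at 3 months of Trem2-KO). None of these 5 was called with the fibroblast score as a covariate. The fibroblast list had a median of 1.03 in Trem2-KO and -0.003 in App-KI, and of its 32 genes 1 differed.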

How the data were processed

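Total RNA from hippocampus was extracted with a Zymo Quick-RNA kit and made into libraries with the SMART-Seq mRNA LP kit, per the labels' protocols. The authors deposited raw read counts per gene for 12 libraries, as 56980 Ensembl identifiers, of which 52073 were matched to a symbol in GENCODE M21. GRCm39 is the build in the submitters' processing notes, which also list the aligner STAR (2.7.10a), the counter featureCounts (2.0.3), DESeq2 (1.36.0) and R (4.2.0). Not given in the sources used here were the annotation release, the strand setting and what was done with reads that match several genes, which makes values of near-identical or overlapping genes uncertain.

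Counts were tested in R 4.3.3 with edgeR 4.0.16 (filterByExpr with a minimum count of 10 and total of 15, TMM scaling, robust quasi-likelihood F-test) in 1 fit of all 12 libraries in 4 groups, with 8 residual degrees of freedom. P-values were adjusted by Benjamini-Hochberg over the 19152 genes tested, with 0.05 as the limit for a call. Each SE was derived from the test: the size of the log2 change, fitted without a prior count, was divided by the square root of F. The log2 changes printed beside it carry edgeR's prior count. CPM values use TMM-scaled library totals, and list scores are means of log2 CPM with a prior count of 2. Each library comes from another mouse, and nothing says how cages or litters were shared. Alternatives used limma 3.58.1 and DESeq2 1.42.0. In simulated counts (18849 genes) built on mean levels over all 12 libraries, 55, 74 and 70 genes were changed by 0.5, 1 and 2 on the log2 scale. Of these, 52.7%, 73.0% and 95.7% were recovered, and 13 unchanged genes were called. Far fewer genes were changed than the 1667 called in Trem2-KO, so these shares may not hold for the data. Intervals and floors cover counting error only.

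Genes named in the text were Trem2 and App, the extremes among called genes, 15 in each direction by log2 change (without overlap between the ages, properly named and averaging 1 or more in log2 CPM), the 8 with the largest called difference between age effects, and for each list up to 6 members with the smallest p and 3 abundant members that were not called. Axl, C4a, Cox6a2, Ctsa, Cx3cl1, Cx3cr1, Fabp5, Gm42047, Gusb, Ifi207, Lpl, P2ry12, Prox1, Selplg, Spp1 and Stat2 were named after their values were seen. Some genes that the rule selects are not reported here. The comparison and all 47 gene lists were chosen with earlier results of these data known. Promoter windows are the 250 bases before the RefSeq start site on GRCm38.p6.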

Additional observations from a re-analysis of the deposited data

Results flagged for a closer look

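Genes named in the text whose age effect differed between Trem2-KO and App-KI by the interaction test are given here with the difference of the log2 age effects, Trem2-KO minus App-KI. In 27 of 32 the difference was negative. The most negative values were -3.77 for Cst7, -2.73 for Gm42047, -1.85 for Ccl6, -1.76 for Samsn1, -1.62 for Cd14, -1.61 for Trem2, -1.49 for Gpnmb and -1.37 for Slc11a1. Genes of microglial lysosomes, adhesion and signalling had -1.20 (Cd68), -1.15 (Hcls1), -1.03 (Tyrobp), -0.93 (Itgb2), -0.92 (Ctss), -0.79 (Inpp5d), -0.78 (Lpl) and -0.77 (Fcgr3). Complement and other microglial genes had -0.75 (C1qc), -0.72 (Laptm5), -0.72 (Gusb), -0.70 (Ctsz), -0.69 (Csf1r), -0.60 (C1qa), -0.57 (Cx3cr1), -0.55 (C1qb), -0.53 (Selplg) and -0.50 (Grn). The astrocyte gene Gfap had -0.35. Positive differences were 0.75 for Fbln1, 0.82 for Kdr, 0.83 for Lef1, 1.5 for Aox3 and 1.59 for Gpr182. Calls that were lost in 1 or more of the fits that left out 1 library were those of 15 genes, led by Hcls1 and Lef1, each lost in 10 of 12. With 3 libraries in a group, single libraries were not tested as outliers.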

How the results depend on the processing

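The 12 libraries hold 3 mice per group, and an exact permutation test of 3 against 3 libraries cannot go below 0.1, so calls rest on the spread shared by all 4 groups. No paired analysis was made, since each library came from its own mouse and the labels link no mouse of 1 group to a mouse of another. Leaving out each library in turn gave 769 to 1920 genes called in the Trem2-KO age effect (583 to 1321 higher and 186 to 705 lower), 788 to 1523 in App-KI (522 to 824 and 245 to 699) and 29 to 76 differences (3 to 29 and 26 to 47). With the fibroblast score as a covariate, 70 genes were called in Trem2-KO, 63 higher and 7 lower, and 3 differences, 0 higher and 3 lower. In a fit of only the 6 Trem2-KO libraries 348 genes were lower. Differences numbered 187 (113 higher and 74 lower) with no filter on low counts, 99 (41 higher) with DESeq2, 83 (34 higher) with the choroid score as a covariate and 5 higher with limma-voom. Median-of-ratios scaling moved the median of all genes from 0.00227 to -0.00207 and the share of calls that were higher from 65.3% to 64.1%. Several log2 age effects in Trem2-KO changed sign. When each library was left out they ranged from -0.033 to 0.12 for Cmpk2, -0.13 to 0.19 for Cst3, -0.12 to 0.059 for Fth1, -0.018 to 0.046 for Gad1, -0.11 to 0.044 for Gja1, -0.078 to 0.27 for Hspb1, -0.11 to 0.0028 for Neurod2, -0.13 to 0.19 for Nnat, -0.34 to 0.11 for S100a10 and -0.025 to 0.053 for Slc1a2. Fitted with the fibroblast score as a covariate, the values were 0.019 for Atp5a1, 0.088 for Atp5b, 0.030 for Ccnd2, -0.23 for Cdh1, -0.056 for Crabp2, -0.39 for Cst3, -0.062 for Dcn, -0.18 for H2-DMa, -0.084 for Mcm6, -0.23 for Mrc1, 0.078 for Neurod2, -0.30 for Nnat, -0.22 for Prox1, -0.57 for Ptgds, 0.065 for Slc17a7, -0.0797 for Slc1a2 and -0.0037 for Vtn. Computed with no filter on low counts, Fth1 was at 0.0019. Computed with limma-voom, Ttr was at -0.52. Fitted with the choroid score as a covariate, it was at -0.99. Crabp2, Dcn and Ptgds are in the fibroblast list, whose mean is the fibroblast score, so for them a shift with that covariate is built in. For the others the cause was not tested.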

Other observations

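Lipid genes moved in several directions in Trem2-KO. Of 26 cholesterol synthesis and uptake genes 5 rose and 0 fell, with a median of 0.11, among them the squalene synthase Fdft1, which was at 92.6, 90.2 and 95.9 CPM at 3 months and 111, 118 and 129 CPM at 9 months and rose by 0.36 ± 0.061 (SE; edgeR adjusted p = 0.000863). The cholesterol median was 0.049 without library 3 at 9 months, and with the fibroblast score as a covariate it was 0.053 with 0 called. Of 23 lipid handling genes 11 rose and 2 fell (median 0.33). The cholesterol exporter Abca1 was at 23.1, 29.3 and 27.5 CPM at 3 months and 46, 42.6 and 33.5 CPM at 9 months and rose by 0.61 ± 0.11 (SE; edgeR adjusted p = 0.00199), and Soat1, which esterifies cholesterol, rose by 0.37 ± 0.071. Lrp1, an uptake receptor for APOE, rose by 0.33 ± 0.062 and the secreted chaperone Clu by 0.30 ± 0.06. With the fibroblast covariate 0 of the 23 rose and 0 fell, at a median of 0.19. In the fit of only the Trem2-KO libraries 1 fell. In the iron list 4 of 13 rose and 1 fell. The iron transporter Slc11a1 was at 1.99, 1.89 and 2.12 CPM at 3 months and 3.84, 5.65 and 4.45 CPM at 9 months and rose by 1.21 ± 0.17 (SE; edgeR adjusted p = 0.000169), its difference from App-KI being -1.37 ± 0.24 (SE; edgeR adjusted p = 0.00906), a call lost in 1 of the 12 fits that left out 1 library (adjusted p = 0.0528 without library 3 at 3 months of Trem2-KO), and the ferroxidase Cp rose by 1.12 ± 0.18. Of the iron genes 2 rose without library 1 or 2 at 3 months or in the fit of only the Trem2-KO libraries, 0 fell without library 2 at 3 months or library 1 or 2 at 9 months, and 0 rose and 0 fell with the fibroblast covariate.

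Other lists held few calls. Of 29 immediate early genes 3 rose and 0 fell (median -0.01), including the activin subunit Inhba by 0.63 ± 0.12 and Klf4 by 0.86 ± 0.17. Of 25 chaperone genes of the endoplasmic reticulum 1 rose (median 0.13), of 21 heat shock genes 2 rose, and of 23 circadian genes 0 were called by edgeR, with 5 at an unadjusted p under 0.05. The chaperone count was 0 without library 2 or 3 at 3 months or library 2 at 9 months, 2 without library 3 at 9 months and 3 with the choroid score as a covariate, and the median was 0.079 without library 2 at 9 months and 0.41 with the fibroblast covariate. The heat shock count was 0 without library 3 at 3 months and 1 without library 1 or 2 at 3 months or library 2 at 9 months. Among circadian genes 1 rose without any 1 of the 9-month libraries, and 1 also fell without library 1 of that age. Fitted with the fibroblast covariate, 0 immediate early (median 0.21), 0 heat shock and 0 circadian genes and 1 chaperone gene rose. Immunoglobulin counts were uneven: Igkc had 10 counts over the 3 libraries at 3 months and 233 at 9 months, with 0, 0.352 and 0.0964 CPM at 3 months and 0.662, 9.44 and 1.11 CPM at 9 months, and was not called (edgeR adjusted p = 0.199). The habenula gene Gpr151 was at 1.44, 1.71 and 1.73 CPM at 3 months and 0.485, 0.479 and 0.53 CPM at 9 months and fell, with a log2 change of -1.71 ± 0.39 (SE; edgeR adjusted p = 0.00778). Of 14 thalamus and habenula genes tested, 2 rose and 1 fell (median 0.078), and 9 had a positive value. From 1 to 3 rose and 1 or 2 fell when any 1 Trem2-KO library was left out. Fitted with the fibroblast covariate, 0 rose and 0 fell, at a median of -0.038.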
